A study of Mus musculus with 9 samples.

Results

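Immediate early genes are the genes that a cell switches on first after a stimulus. The 10 described here are *Fos*, *Fosb*, *Jun*, *Junb*, *Egr1*, *Atf3*, *Ier2*, *Nr4a1*, *Dusp1* and *Btg2*, which were taken by symbol from a count table of 55471 Ensembl gene IDs. All 10 were found once and all 10 passed the filter on low counts. RNA was sequenced from the gastrocnemius, a calf muscle, of newborn mice at postnatal day 0 to 1. There were 5 homozygous *Shank3Δ11(−/−)* mice (KO1 to KO5), which carry a deletion of exon 11 of *Shank3* in all tissues, and 4 wildtype *Shank3(+/+)* mice (WT1 to WT4). The labels give C57BL/6 as the background of all mice and name no treatment, and per the methods the mutants came from matings of heterozygous C57BL/6JRj mice. The sources do not say which mice were littermates or how long each dissection took. The study left out KO2 and KO4 for too few total reads, so the genotypes were compared in the 7 other mice and, beside that, in all 9.

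As background, immediate early genes need no new protein to be transcribed. Kinase cascades such as the MAP kinase pathway, or calcium and cyclic AMP, act on factors already bound at their promoters, among them SRF with its ELK partners and CREB, and the RNA appears within minutes and decays as fast. In skeletal muscle they are known to rise with contraction, injury and the activation of muscle stem cells, and in many tissues with stress and dissection. Most members encode transcription factors. FOS, FOSB, JUN and JUNB are subunits of the AP-1 dimer, ATF3 is a related stress-induced bZIP factor, EGR1 is a zinc finger factor, and NR4A1 is an orphan nuclear receptor. DUSP1 is a phosphatase that switches MAP kinases off again, BTG2 restrains proliferation, and IER2 is a small nuclear protein.

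The stretches before the start sites of 4 members are shown as examples of windows that carry the letters of a CREB site. The windows of *Fosb*, *Junb* and *Atf3* carry them too and are not shown. Whether these letters go with shared levels over the mice was not tested. Promoter windows from RefSeq (GRCm38.p6) matched 8 of the 10 genes, *Egr1* and *Ier2* not being among them. Each window covered the 250 bases before the start and was searched on both strands. Capitals mark the core of the cyclic AMP response element (CRE), TGACG or its reverse complement, the full element TGACGTCA, which holds a core on each strand, and the TATAAA of *Fos*. All sequences run 5′ to 3′ on the strand of the gene: *Fos* is chr12:85473640-85473889 (plus strand), *Nr4a1* chr15:101266596-101266845 (plus strand), *Dusp1* chr17:26508520-26508722 (minus strand, ending 48 bases before the start, where an annotated exon begins) and *Btg2* chr1:134079156-134079405 (minus strand).
Fos: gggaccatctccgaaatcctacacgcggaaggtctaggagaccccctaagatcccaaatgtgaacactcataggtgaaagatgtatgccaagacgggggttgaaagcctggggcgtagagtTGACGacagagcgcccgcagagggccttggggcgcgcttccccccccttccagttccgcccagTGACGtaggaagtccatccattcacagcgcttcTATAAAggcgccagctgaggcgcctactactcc
Nr4a1: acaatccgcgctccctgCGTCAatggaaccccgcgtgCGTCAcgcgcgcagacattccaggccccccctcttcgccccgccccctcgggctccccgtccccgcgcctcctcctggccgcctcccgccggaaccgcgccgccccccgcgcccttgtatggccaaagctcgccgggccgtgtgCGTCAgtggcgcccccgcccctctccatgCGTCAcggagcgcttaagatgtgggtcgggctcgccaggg
Dusp1: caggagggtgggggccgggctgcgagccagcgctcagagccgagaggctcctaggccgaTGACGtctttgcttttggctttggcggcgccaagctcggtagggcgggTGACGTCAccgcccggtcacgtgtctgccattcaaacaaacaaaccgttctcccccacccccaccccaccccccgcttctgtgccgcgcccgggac
Btg2: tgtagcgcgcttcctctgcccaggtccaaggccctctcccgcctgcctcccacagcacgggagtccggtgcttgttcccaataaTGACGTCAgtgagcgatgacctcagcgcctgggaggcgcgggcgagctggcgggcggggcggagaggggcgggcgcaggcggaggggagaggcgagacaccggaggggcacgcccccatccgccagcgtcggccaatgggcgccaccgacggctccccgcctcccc

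The core was found in 7 of the 8 windows, *Jun* being the exception, and in 17.8% of 32851 mouse promoter windows of the same length. *Nr4a1* held 4 of them, which do not overlap. *Fos* held 2, at −129 to −125 and at −66 to −62 from its start, and TATAAA at −33 to −28, letters found in 12.4% of windows. The full CRE was found in *Dusp1*, at −143 to −136, and in *Btg2*, at −166 to −159, and in 1.55% of all windows. None of the 8 windows held a CArG box, the element that SRF binds (1.47% of all windows), the AP-1 letters TGANTCA (6.75%) or the EGR letters GCGTGGGCG (0.536%). A match is a description of letters and not a bound site, and a missing match says only that these letters are not in this window.

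The libraries held 26444372 to 40471957 counts, with a median of 31435732, and 3.81% to 7.88% of counts on mitochondrial genes. Of the mice that the study left out, KO4 had both the highest total and the highest mitochondrial share, and KO2, at 28211941 counts, lay above KO5, which was kept and had the lowest total. These are reads counted on genes, and total reads per mouse were not analysed here. Markers of skeletal muscle were abundant in every mouse: the 11 listed, among them *Acta1*, *Ckm* and *Myh3*, summed to between 57140 and 65590 CPM, counts scaled to library size with TMM factors. *Shank3*, the targeted gene, lay between 25.8 and 35.1 CPM in the 5 *Shank3Δ11(−/−)* mice and between 32.5 and 38.5 CPM in *Shank3(+/+)*. A deletion of one exon need not lower the count of a whole gene, so this value does not check the genotype. Among the mice, KO3, KO5, WT3 and WT4 had more than 100 CPM of *Xist*, the RNA of the inactive X chromosome, and the others 3.23 CPM or less, so the *Shank3(+/+)* mice were 2 with and 2 without it. Of the mutant mice in the main comparison, KO3 and KO5 had it and KO1 did not. Y-linked genes such as *Ddx3y* summed to at most 0.423 CPM in the mice with *Xist* and to 190 to 248 CPM in the others, the pattern of females and males.

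The AP-1 gene *Fos* (ENSMUSG00000021250, mm10 chromosome 12 from 85473890 to 85477273) was at 27.8 CPM in KO1, 15.7 in KO2, 29.3 in KO3, 39.8 in KO4 and 17.9 in KO5, against 19.2, 17.9, 40.5 and 38.3 in WT1 to WT4. WT3, KO4 and WT4 were high and KO2, WT2 and KO5 low, so that each genotype spanned nearly the whole range and the groups overlapped. The mutant mice averaged 26.1 ± 9.72 CPM (SD, n = 5) and the wildtype mice 29.0 ± 12.1 CPM (SD, n = 4). *Fosb* (ENSMUSG00000003545, chromosome 7 from 19302696 to 19310051), which encodes a close relative of FOS, was the scarcest member for its exon length. It was at 3.48, 2.24, 4.82, 7.10 and 2.36 CPM in KO1 to KO5 and at 3.02, 2.57, 4.99 and 8.98 CPM in WT1 to WT4. The highest mouse, WT4, was 4.01-fold above the lowest, KO2, the widest ratio among the 10 genes, and again both genotypes had mice at either end.

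*Jun* (ENSMUSG00000052684, chromosome 4 from 95049034 to 95052222), the usual partner of FOS in AP-1, was at 54.0, 43.6, 52.1, 52.0 and 42.5 CPM in KO1 to KO5 and at 47.5, 42.2, 60.5 and 81.3 CPM in WT1 to WT4. WT4 and WT3 were the highest, KO4 was near the mean here, and the 7 mice other than WT3 and WT4 lay between 42.2 and 54.0 CPM, WT2 being lowest. *Junb* (ENSMUSG00000052837, chromosome 8 from 84974484 to 84978718) was at 10.5, 8.29, 9.22, 15.2 and 12.9 CPM in KO1 to KO5 and at 9.98, 9.70, 7.89 and 11.98 CPM in WT1 to WT4. Its order of mice differed from that of *Fos*: WT3, the highest for *Fos*, was the lowest, and KO5, low for *Fos*, was second to KO4. Exons of *Junb* overlap those of *Prdx2* on the opposite strand, which reached 7120 counts, and no source says whether the counting used the strand, so how many reads were dropped or shared there is unknown. The same holds for *Jun* and its antisense gene *Junos*, with at most 121 counts, and for *Dusp1* and *Ergic1*, with at most 4925.

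*Atf3* (ENSMUSG00000026628, chromosome 1 from 191170296 to 191218039) was at 13.3, 7.07, 12.2, 24.9 and 14.4 CPM in KO1 to KO5 and at 6.93, 6.62, 19.5 and 20.7 CPM in WT1 to WT4. The wildtype mice fell into a low and a high pair with nothing between them, while KO1, KO3 and KO5 lay in that gap, at 13.3 ± 1.09 CPM (SD, n = 3) against 13.4 ± 7.72 CPM (SD, n = 4). *Egr1* (ENSMUSG00000038418, chromosome 18 from 34859823 to 34864984) was the steadiest gene, at 42.6, 36.9, 42.1, 50.8 and 52.5 CPM in KO1 to KO5 and at 38.9, 46.9, 55.5 and 47.0 CPM in WT1 to WT4. WT3 and KO5 were the highest and KO2 the lowest, a 1.51-fold range. *Nr4a1* (ENSMUSG00000023034, chromosome 15 from 101254269 to 101274795) was at 41.8, 27.1, 33.3, 54.7 and 31.0 CPM in KO1 to KO5 and at 23.6, 20.6, 36.4 and 38.4 CPM in WT1 to WT4. KO4 was the highest by a wide margin, WT1 and WT2 the lowest, and the other mice of both genotypes were mixed.

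*Dusp1* (ENSMUSG00000024190, chromosome 17 from 26505590 to 26562128), whose product feeds back on the MAP kinases, was at 29.6, 20.3, 29.7, 31.0 and 26.3 CPM in KO1 to KO5 and at 21.5, 22.4, 31.3 and 29.7 CPM in WT1 to WT4. KO2, WT1 and WT2 were low, KO5 was between, and the other 5 mice lay together. *Btg2* (ENSMUSG00000020423, chromosome 1 from 134075170 to 134079120) was at 27.3, 18.0, 20.1, 23.0 and 17.9 CPM in KO1 to KO5 and at 17.6, 15.7, 26.8 and 20.7 CPM in WT1 to WT4. KO1 and WT3 were highest and WT2 lowest. *Ier2* (ENSMUSG00000053560, chromosome 8 from 84661331 to 84662852) was at 20.0, 15.7, 19.7, 30.9 and 19.3 CPM in KO1 to KO5 and at 18.3, 20.8, 19.1 and 27.0 CPM in WT1 to WT4. KO4 and WT4 stood above 7 mice that lay between 15.7 and 20.8 CPM.

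**Figure D1:**
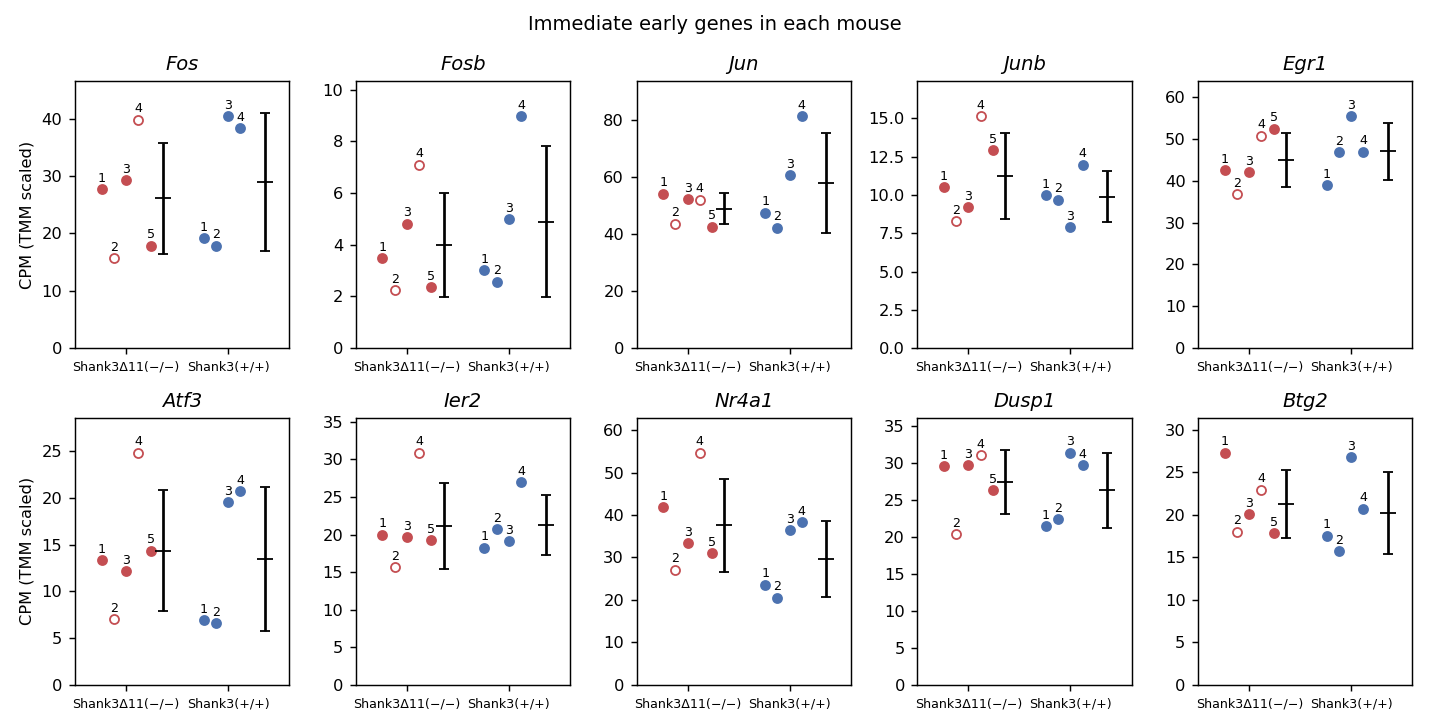
CPM (TMM scaled) of each of the 10 genes in each mouse, numbered 1 to 5 in *Shank3Δ11(−/−)* (red, open for KO2 and KO4, which the study left out) and 1 to 4 in *Shank3(+/+)* (blue). Bars give the mean and SD of 5 and 4 mice, and in every panel the values of the genotypes overlap.

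Scaled to the length of their exons, the genes were at moderate levels. Mean RPKM over the 9 mice was 16.6 ± 3.85 (SD) for *Jun*, 13.9 ± 3.11 for *Ier2*, 11.6 ± 4.34 for *Fos*, 10.2 ± 1.41 for *Egr1*, 9.72 ± 2.96 for *Nr4a1*, 8.11 ± 1.32 for *Dusp1*, 7.57 ± 1.504 for *Btg2*, 6.48 ± 3.07 for *Atf3*, 4.62 ± 1.02 for *Junb* and 0.704 ± 0.375 for *Fosb*. Neighbours in this order overlapped over the mice, with one exception: the highest RPKM of *Fosb*, 1.44, lay below the lowest of *Junb*, 3.43. The lengths are those of all annotated exons joined, so a gene with rarely used exons is placed too low.

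The spread over the mice was largest for *Fosb* and *Atf3* and smallest for *Egr1*. The coefficient of variation (CV, SD over mean of CPM, n = 9) was 53.2% for *Fosb*, 47.4% for *Atf3*, 37.3% for *Fos*, 30.4% for *Nr4a1*, 23.2% for *Jun*, 22.4% for *Ier2*, 22.1% for *Junb*, 19.9% for *Btg2*, 16.3% for *Dusp1* and 13.7% for *Egr1*. Without WT4 the CV of *Jun* was 13.2%, and in the 7 mice without KO2 and KO4 that of *Ier2* was 14.3%. Counting error alone would give a CV of 2.45% to 8.42%. The median CV of the members was 22.8%, while it was 14.4% over 17984 genes with a mean of at least 1 CPM, of which 20.5% had a CV above the members' median. Compared with genes within 0.5 log2 CPM of its own level, each of the 10 had a biological coefficient of variation above the median of those genes, and 6 were above their 90th percentile. *Atf3* was at percentile 99.4, *Fos* at 98.8, *Fosb* at 98.1 and *Nr4a1* at 97.1, whereas *Egr1* was at 70.5.

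The spread was shared between genes. KO4 was among the 3 highest mice for 9 of the 10 genes, WT4 for 8 and WT3 for 7, and KO2 was among the 3 lowest for 9, WT2 for 7 and WT1 for 6. The level of all 10 genes in a mouse, taken as the mean of their log2 CPM after centring each gene on its mean, was 0.49 in KO4, 0.42 in WT4, 0.24 in WT3, 0.09 in KO1, 0.02 in KO3, −0.12 in KO5, −0.32 in WT1, −0.37 in WT2 and −0.44 in KO2. Mice of both genotypes were thus found at the top and at the bottom, and the 3 mutant mice of the main comparison held the middle. Among *Shank3(+/+)* the high pair was also the pair with *Xist*, but KO4, which was highest, had little *Xist* and KO5, with *Xist*, was below the mean. *Fos* was at 31.5 ± 10.3 CPM (SD, n = 4) in the mice with *Xist* and 24.1 ± 9.93 CPM (SD, n = 5) in the others, *Atf3* at 16.7 ± 4.08 against 11.8 ± 7.83 CPM and *Nr4a1* at 34.8 ± 3.25 against 33.6 ± 14.4 CPM, and for all 10 genes these groups overlapped.

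**Figure D2:**
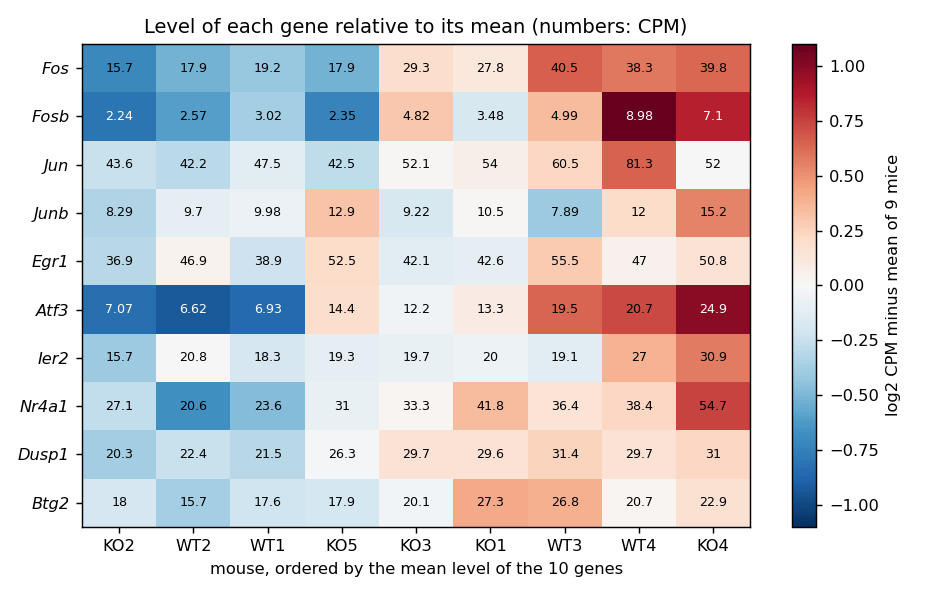
Level of each gene (rows) in each mouse (columns), as log2 CPM minus the mean of that gene over 9 mice in color and CPM as numbers. Mice are ordered by the mean level of the 10 genes, from KO2 at −0.44 to KO4 at 0.49, so the left to right trend is set by this order, and *Junb* and *Egr1* follow it least.

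Of the 45 pairs of members, all 45 had a positive Pearson correlation of log2 CPM over the 9 mice. The median r was 0.66 (median Spearman rho 0.63), and r was above 0.5 in 33 pairs, or 73.3%. Over all pairs of the 21735 genes tested in 9 mice the median r was 0.00 and 13.0% of pairs were above 0.5, and among the 10036 genes of like level it was 14.6%. The closest pair was *Fos* and *Fosb* (r = 0.93, exact permutation p = 0.000606, adjusted over 45 pairs 0.0205, rho = 0.92 with exact p = 0.00131), and without the 2 mice farthest from the median of *Fos*, KO2 and WT2, r was 0.89. *Atf3* followed *Dusp1* (r = 0.91, exact p = 0.00202, adjusted 0.0205, rho = 0.82 with exact p = 0.0108) and was at r = 0.85 without WT1 and WT2. *Fos* and *Dusp1* were as close (r = 0.90, exact p = 0.00228, adjusted 0.0205, rho = 0.95 with exact p = 0.000353), and likewise *Atf3* and *Nr4a1* (r = 0.90, exact p = 0.00102, adjusted 0.0205, rho = 0.87 with exact p = 0.00451), with r = 0.82 and 0.80 once the 2 farthest mice were left out.

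An exact p below 0.05 was found for 22 of the 45 pairs, and 10 passed after adjustment, all among *Fos*, *Fosb*, *Jun*, *Atf3*, *Nr4a1*, *Dusp1* and *Ier2*. By rank 5 passed, 3 of them among these 10, while *Nr4a1* with *Btg2* and *Fosb* with *Dusp1* passed by rank alone. One of the 10, *Fosb* with *Ier2* (r = 0.80, exact p = 0.00853, adjusted 0.0426, rho = 0.63 with exact p = 0.076), rested on KO4 and WT4 and fell to r = 0.38 without them. *Junb* had the weakest ties, with r = 0.00 to *Btg2* (exact p = 0.995, rho = 0.05 with exact p = 0.912), 0.10 to *Jun* and 0.23 to *Fos*, and its closest partner was *Ier2* (r = 0.77, exact p = 0.0158, adjusted 0.0534, rho = 0.63 with exact p = 0.076). Against the mean of the 9 other members, r was 0.94 for *Atf3*, 0.93 for *Fos*, 0.90 for *Dusp1*, 0.87 for *Fosb*, 0.86 for *Nr4a1*, 0.77 for *Ier2*, 0.72 for *Jun*, 0.66 for *Btg2*, 0.55 for *Egr1* and 0.43 for *Junb*. With the genotype means removed the median over the pairs was 0.73. Without KO4 it was 0.60, and without the 2 mice farthest out in each pair 0.55.

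**Figure D3:**
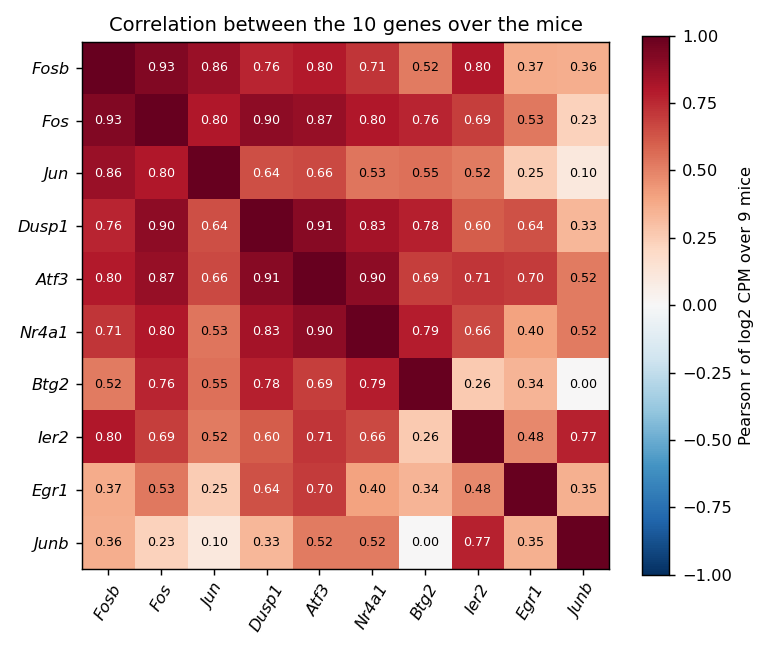
Pearson r of log2 CPM between the 10 genes over 9 mice. *Fos*, *Fosb*, *Dusp1*, *Atf3* and *Nr4a1* form a block with r from 0.71 to 0.93, and *Egr1* and *Junb* stand outside it, *Junb* and *Btg2* having the lowest r, 0.00.

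The genotypes were then compared for each gene. In the comparison of 3 mutant with 4 wildtype mice, 0 of the 10 genes were called by edgeR's quasi-likelihood test at p below 0.05 with an FDR below 25%, as were 0.0% of the 21809 genes tested. At an unadjusted p below 0.05 there were 0 members and 2.08% of all genes (1.16% higher and 0.917% lower in *Shank3Δ11(−/−)*). With all 9 mice there were 0 members and 2.03% of 21735 genes (1.16% higher and 0.874% lower). DESeq2 called 0 members and 0.0275% of all genes, or 0 and 1.8% at an unadjusted p below 0.05, and limma-voom 0 and 0.0%, or 0 and 1.95%. In neither set of mice did any of the 10 genes separate the genotypes without overlap, which 2.85% of genes did in the 7 mice and 0.686% in all 9. The members' fold changes went both ways, positive for 4 and negative for 6, and their median on the log2 scale was −0.04, where that of all genes was −0.01. With all 9 mice, 5 were positive and 5 negative (median 0.03, all genes 0.00).

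In the 7 mice the fitted log2 fold change farthest from 0 was that of *Fosb*, −0.47 (standard error 0.43, 95% interval −1.44 to 0.50), but it was −0.28 with all 9 mice and 0.0145 without WT4. The value was −0.22 for *Fos* (0.33, −0.96 to 0.52), −0.23 for *Jun* (0.21, −0.70 to 0.23) and 0.13 for *Junb* (0.18, −0.26 to 0.52). All 4 intervals hold 0, and for *Fosb* the interval reaches past a halving in the mutant. *Atf3* had the widest interval, at −0.03 (0.43, −1.01 to 0.95), and its sign depended on the mice and the method: it was 0.10 with all 9 mice, and the difference of mean log2 CPM in the 7 mice was 0.18. *Egr1* had the narrowest, at −0.05 (0.14, −0.36 to 0.26), which lies well within a log2 unit on either side. *Nr4a1* was at 0.24 (0.22, −0.25 to 0.73) and at 0.34 with all 9 mice (0.23, −0.16 to 0.84). *Ier2* was at −0.13 (0.15, −0.45 to 0.20), *Dusp1* at 0.11 (0.15, −0.23 to 0.45) and *Btg2* at 0.10 (0.20, −0.34 to 0.54). Leaving out 1 mouse turned the sign of *Junb* (−0.0141 without KO5), *Egr1* (0.0457 without WT3), *Ier2* (0.0166 without WT4) and *Btg2* (−0.10 without KO1), while *Fos*, *Jun*, *Nr4a1* and *Dusp1* kept theirs under each such omission. The FDR of each of the 10 by edgeR, in 7 and in 9 mice, was 1.00.

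A 2-sided exact permutation test of the mean log2 CPM gave p from 0.4 for *Nr4a1* to 0.857 for *Egr1* in 3 against 4 mice, with p = 0.771 for *Fos* and 0.6 for *Fosb*, where the smallest possible p is 0.0286. In 5 against 4 mice it gave p from 0.262 for *Nr4a1* to 0.865 for *Ier2*, where 0.00794 is possible. These tests compare mice, whose litters and days of dissection are not stated. In a whole muscle, fewer cells of a type and less RNA per cell cannot be told apart.

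**Figure D4:**
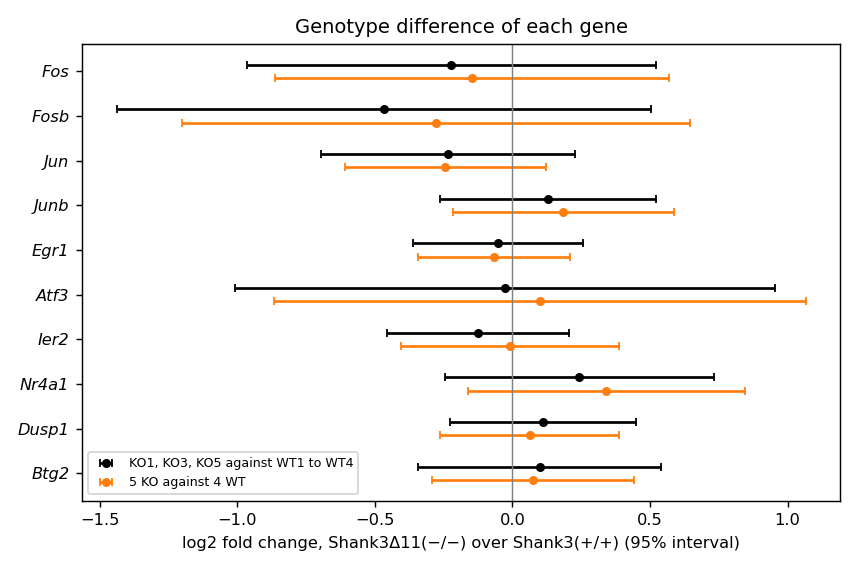
Log2 fold change of *Shank3Δ11(−/−)* over *Shank3(+/+)* with its 95% interval from edgeR, for 3 mutant against 4 wildtype mice (black) and for all 9 mice (orange). Every interval holds 0, and they are widest for *Atf3* and *Fosb* and narrowest for *Egr1*.

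Other early response genes went with the 10 members over the mice. A list of 48 other early response genes, 46 of which passed the filter, followed their level over the 9 mice at r = 0.97 (rho = 0.93), and 40 of its genes had a positive r. *Fosl1*, *Egr4* and *Arc*, the last known from neurons, were below 1 CPM in every mouse. The most abundant were *Mcl1*, a survival factor, at 206 CPM with r = 0.61, *Jund*, the JUN family member present in resting cells, at 140 CPM with r = 0.80, and *Klf6*, a zinc finger factor, at 133 CPM with r = 0.82. *Ccn1* and *Ccn2*, secreted matrix proteins, were close to the members (r = 0.94 and 0.93), as was *Zfp36*, which speeds the decay of early response mRNA (r = 0.94). Against the same level of the 10 genes, *Egr2* was at r = −0.29, *Egr3* at −0.48, *Nr4a2* at 0.11 and *Nr4a3* at 0.69. Between the genotypes 22 of the 46 had a positive and 24 a negative log2 fold change, with a median of −0.01 and 0 at an unadjusted p below 0.05 by edgeR. With all 9 mice 32 were positive and 14 negative (median 0.04), and 2 reached that p, *Nr4a3* with a log2 fold change of 0.73 (standard error 0.32) and *Klf10* with 0.38 (0.16), both with an edgeR FDR of 1.00.

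The 24 listed regulators upstream of immediate early genes, kinases and transcription factors such as *Creb1* and *Srf*, did not share this pattern. Their level followed the members at r = −0.48 (rho = −0.32), and 6 had a positive r, among them *Srf* at 0.43 and *Crem* at 0.67. The most abundant were the muscle transcription factors *Mef2c* at 710.2 CPM, *Mef2d* at 195 CPM and *Mef2a* at 160.4 CPM, with r of −0.66, −0.47 and −0.63. Of the 24, 9 were higher and 15 lower in *Shank3Δ11(−/−)*, with 0 at p below 0.05 by edgeR.

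Genes of other responses and of other cells were set against the level of the members in the same way, as a description without a test. Glucocorticoid response genes (11) followed the members at r = 0.94, hypoxia genes (15) at 0.81 and heat shock genes (12) at 0.80, with rho of 0.92, 0.80 and 0.77, and r of 0.94, 0.75 and 0.78 without KO2 and KO4. The heat shock list moved by little, from −0.06 in KO2 to 0.09 in WT4 on the centred log2 scale. Its genes went both ways: 8 of the 12 had a positive r, and r ran from −0.74 for *Dnajb1* to 0.83 for *Bag3*. *Hspa1a* and *Hspa1b*, its most inducible genes, were at 1.69 to 3.67 CPM in every mouse. The glucocorticoid list ran from −0.65 in KO2 to 0.58 in WT4. Within it *Tsc22d3*, *Sgk1* and *Mt1*, which hormone-bound receptor induces, were at r of 0.90, 0.90 and 0.90, while *Pdk4* was at 0.16 and *Cdkn1a* at −0.06. Between the genotypes *Klf9* was the only one of the 11 at an unadjusted p below 0.05 in the 7 mice (log2 fold change 0.41, standard error 0.15, edgeR FDR 1.00), and with all 9 mice, where it was at 0.36 (0.29), there was 0. Satellite cell markers (5) went the other way, at r = −0.94 (rho = −0.93), led by *Pax7*, which defines these muscle stem cells, at r = −0.95. *Pax7* ran from 14.7 CPM in WT3 and 15.9 in KO4 to 32.8 in KO2, and *Sdc4* of the same list was at r = 0.34.

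Skeletal muscle markers as a list followed the members at r = 0.13, and at 0.72 without KO2 and KO4. Fibroblast markers did so at r = 0.77 (0.60 without KO2 and KO4), *Col1a1* at 0.91 ranging from 5111 CPM in WT2 to 12990 in KO4. All 7 of these markers had a positive r, but *Dpt* was at 0.16 and *Pdgfra* at 0.12. The summed level of the fibroblast markers was 13260 to 21980 CPM in *Shank3Δ11(−/−)* and 10980 to 18120 CPM in *Shank3(+/+)*. For endothelial markers r was 0.50, but −0.32 without KO2 and KO4, and for macrophage and leukocyte markers it was 0.22, and −0.11 without them. Neutrophil markers, of which *Elane* and *Mpo* were below 1 CPM throughout, were at −0.02 (−0.18 without KO2 and KO4) and smooth muscle and pericyte markers at −0.20 (−0.63). Schwann cell markers were at −0.19 (0.10 without these mice), adipocyte markers at −0.12 (0.05), erythroid markers at 0.15 (0.08), epidermal markers at 0.41 (0.24) and tendon and cartilage markers at 0.53 (−0.03). Between the genotypes in the 7 mice, an unadjusted edgeR p below 0.05 was reached by 4 of 4 adipocyte markers tested and 3 of 6 Schwann cell markers, all higher in *Shank3Δ11(−/−)*, by *Dpt* (higher) and by *Myod1* and *Ngp* (lower), each with an FDR of 1.00. With all 9 mice it was reached by 2 adipocyte, 1 Schwann cell, 1 fibroblast, 1 neutrophil and 1 satellite cell marker (*Sdc4*, higher). The adipocyte list stood highest in KO5, at 5.20 on the centred log2 scale, where the immediate early genes were at −0.12. The total count followed the members at r = 0.43, and at −0.02 without KO4, and the mitochondrial share at 0.19, and at −0.28 without KO4. The part of these genes, of depth and of handling in the spread was not tested.

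**Figure D5:**
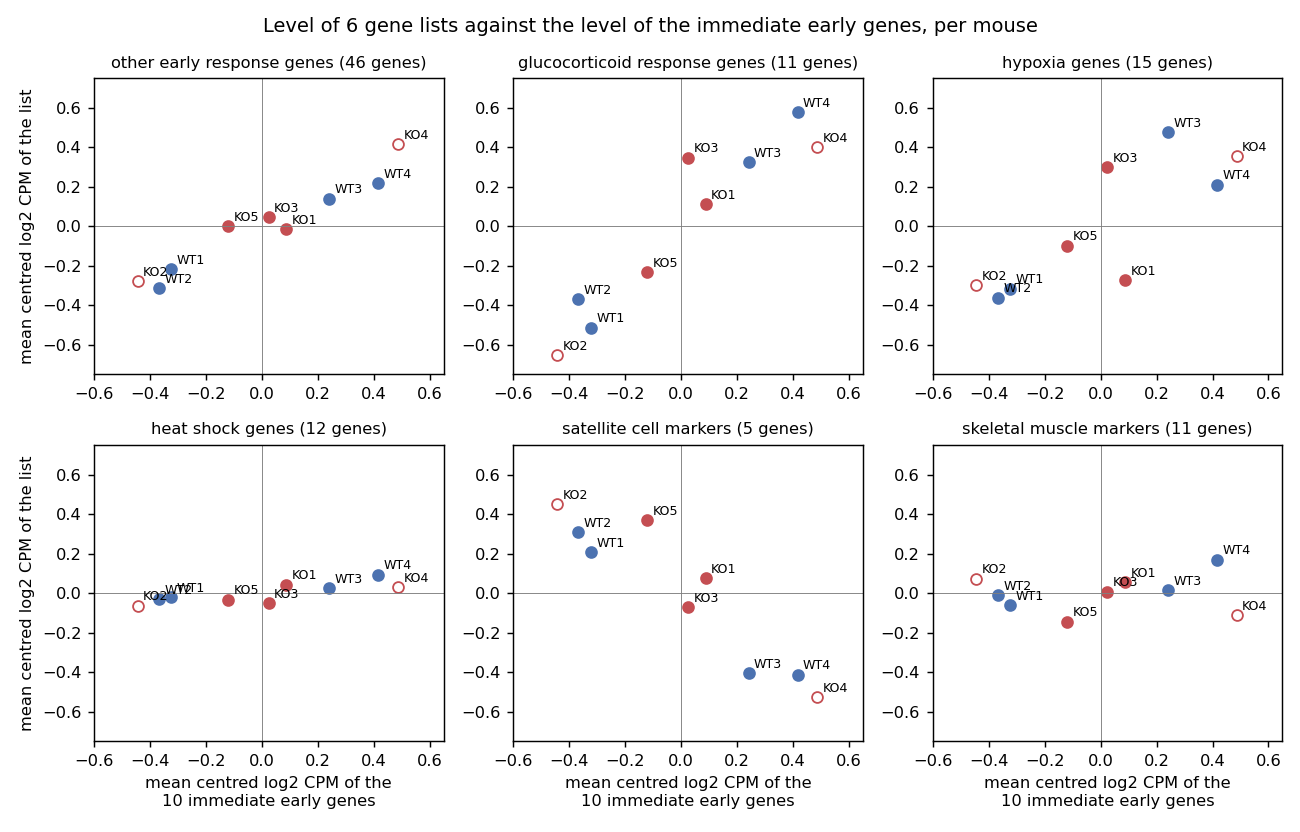
Mean centred log2 CPM of 6 gene lists against that of the 10 immediate early genes, each point a mouse (red *Shank3Δ11(−/−)*, open for KO2 and KO4, blue *Shank3(+/+)*). Other early response genes follow the line of the members most closely (r = 0.97), satellite cell markers are lower where the members are higher (r = −0.94), heat shock genes are nearly flat in size, and skeletal muscle markers are at r = 0.13, or 0.72 without KO2 and KO4.

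Ranked over 17974 genes outside the members, those most like the members' mean over the 9 mice were *Pdlim1*, a cytoskeletal adaptor (r = 0.98, rho = 0.95), the pseudogene *Gm11633* (0.97, 0.97), *Trib1*, a pseudokinase (0.96, 0.97), *Gm15270* (0.95, 0.87), *Fam43a* (0.94, 0.92), *Auh*, a mitochondrial hydratase (0.94, 0.95), *Zfp36* (0.94, 0.97), *Gm49342* (0.94, 0.92), *Csrp1*, a LIM protein of actin filaments (0.94, 0.93), and *Dusp5*, a dual specificity phosphatase (0.94, 0.97). An r above 0.8 was found for 398 genes, or 2.21%. *Pdlim1* moved by less than the members, from 64.2 to 92.8 CPM, while *Dusp5* moved from 0.442 to 2.92 CPM. *Trib1*, *Zfp36* and *Dusp5* were on the list of other early response genes.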

How the data were processed

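RNA of the gastrocnemius of 9 mice was sequenced, 1 library per mouse. The authors mapped the reads with HISAT2 2.2.1 to mm10, kept concordantly mapped reads and deposited the counts per Ensembl gene from featureCounts 2.0.1, without normalization. Which annotation release and strand setting were used, and what was done with reads of several matches, is not given in the sources used here. Of the 55471 gene IDs, 16836 had no count, and symbols and mm10 positions were found for 55230 in GENCODE M21. No blank or total row entered the library sizes.

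From these counts CPM was computed with TMM scaling, log2 CPM with a prior count of 2, and RPKM over the joined exons. Genotypes were compared with edgeR 4.0.16 (filterByExpr, minimum count 10, minimum total 15, robust quasi-likelihood test, Benjamini-Hochberg FDR over all genes tested) in R 4.3.3, which kept 21809 genes for 7 mice and 21735 for 9. Calls used the study's criterion, p below 0.05 and an FDR below 25%. Standard errors and 95% intervals are those of the fit. Permutation tests were exact, 2-sided and over all splits or orders of the mice. Alternatives were all 9 mice, no filter, RLE size factors, DESeq2 1.42.0, limma-voom (limma 3.58.1), a replicate block, each mouse left out, a prior count of 0.5 and, added after the data were seen, the *Xist* division as a covariate. The edgeR fit of the 7 mice was first tested on simulated counts with known fold changes, and the alternatives were not.

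The members and the gene lists were chosen with earlier results of these data known. The lists were written from general knowledge. Named are all 10 members, of the lists of other early response genes and regulators the 3 of highest mean CPM and any gene with p below 0.05 in the 7 mice, and the 10 genes most like the members' mean among those of at least 1 CPM. Other genes named were chosen after their values were seen. Promoter sequences are from RefSeq (GRCm38.p6). Python 3.11.15 and matplotlib 3.10.9 were used for the figures.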

Additional observations from a re-analysis of the deposited data

Results flagged for a closer look

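*Ier2* in KO4 stood apart from the other *Shank3Δ11(−/−)* mice. At 30.9 CPM it was the highest of the 5, against 15.7 to 20.0 CPM in the rest, and its gap to the next mouse was 0.718 of the whole range, above Dixon's 95% limit of 0.71. Chance gives such a gap in about 1 of 20 groups, and each of the 10 genes was examined in both genotypes. KO4 also had the deepest library and is one of the mice that the study left out, and WT4 was the highest *Shank3(+/+)* mouse for this gene, at 27.0 CPM.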

How the results depend on the processing

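In every alternative run, 0 of the 10 genes were called and 0 had p below 0.05, with a smallest p of 0.0931 and a smallest FDR of 0.998 (edgeR, DESeq2 or limma-voom). Over all genes the edgeR test called 0, against 1 with no filter, 6 by DESeq2, 1 with the *Xist* division as a covariate (chosen after seeing the data) and 0 to 15 with a mouse left out, the highest without KO1, 4 without KO3 and 1 without WT2. Genes with p below 0.05 numbered 453, against 972 with no filter and 224 (without KO5) to 968 (without KO1) with a mouse left out. No label says that the replicate numbers pair the mice. Deviations of same-numbered mice correlated at 0.373, 0.052, 0.357 and 0.101. KO1, KO3 and KO4 were closest to the wildtype mouse of their own number, as a hint from the data, and KO2 to WT1 (0.269). KO1, KO2 and WT1 had little *Xist* and KO3 and WT3 had more than 100 CPM, while KO4 and WT4 differed in it. The part of *Xist* status in these correlations was not tested. With the replicate number as a block, 9 genes were called and 844 had p below 0.05 by edgeR. *Fos* (0.0171), *Fosb* (0.0659), *Ier2* (0.0829) and *Atf3* (0.0921) turned from lower to higher. Among the mice of the main comparison only KO1 with WT1 and KO3 with WT3 share a number. The blocked difference thus rests on these pairs, and KO5, WT2 and WT4 add nothing to it.

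Of 150 alternative fold changes of the members, 132 kept their sign and 18 reversed it. *Atf3* was 0.10 with all 9 mice, 0.19 by limma-voom, 0.0325 with the *Xist* division and 0.32 with that division and all 9 mice. With a mouse left out, it ranged from −0.25 to 0.27, *Btg2* from −0.10 to 0.27, *Egr1* from −0.17 to 0.0457, *Fosb* from −0.75 to 0.0145, *Ier2* from −0.19 to 0.0166, *Junb* from −0.0141 to 0.24, *Fos* from −0.40 to −0.01, *Jun* from −0.36 to −0.02, *Dusp1* from 0.03 to 0.22 and *Nr4a1* from 0.10 to 0.40. The cause was not tested. The median r of the pairs was 0.599 to 0.701 with a mouse left out and 0.532 in the 7 mice without KO2 and KO4. The CV of *Jun* was 13.2% without WT4, and that of *Ier2* 16.2% without KO4, and in the 7 mice *Ier2* was at 14.3% and *Junb* at 16.5%. With 3 and 4 mice the intervals of *Fosb* and *Atf3* are wide (−1.44 to 0.50 and −1.01 to 0.95), and what change could be detected was not measured.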
